A study of Mus musculus with 16 samples.

Results

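The genes described here encode potassium channels and their partner subunits, taken as every gene in the deposited table whose mouse symbol starts with Kcn. Kcnq1ot1 and symbols ending in "os" were left out, and a gene had to reach 10 counts in at least 4 of the 16 libraries. Of 32207 genes in the table, 94 carried such a symbol and 66 met the count minimum. They comprised 27 voltage-gated alpha subunits, 10 auxiliary subunits of those channels, 11 inward rectifiers, 8 two-pore channels, 8 channels of the calcium- and sodium-activated families, 1 auxiliary subunit of calcium-activated channels (Kcnmb4) and 1 opposite-strand RNA (Kcnmb4os2), whose name ends in "os2" and so passed the rule. Just inside the count minimum were Kcnj14 and Kcnn4, each with 10 counts in 4 libraries, and just outside it was Kcng2, with 3 such libraries. Kcnj14 then failed the filter of the statistical test, which left 65 members tested.

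RNA was sequenced from brain cells of OF-1 mice, an outbred strain, at postnatal day 16. The cells carried the O4 surface antigen and were captured with magnetic beads. Control mice and mice exposed to BPA gave 4 libraries for each sex, and BPA is bisphenol A, a plastics monomer that binds estrogen receptors. Exposed pups received it through their mothers' drinking water from gestational day 7 until the end of the experiment, at an estimated 40 µg/kg/day by the labels, a figure whose scale was not settled against the water concentration in the design text. The controls carried no labelled treatment. Litters are not labelled. Pups of 1 litter share their mother's exposure, and p-values here reflect only how these 16 libraries vary, so they may be too small where a group holds littermates.

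Potassium channels let potassium leave or enter a cell and set its resting potential. In oligodendrocytes the inward rectifier Kir4.1, encoded by Kcnj10, takes up the potassium that active axons release, and loss of it disturbs myelin and axons. Precursor cells carry delayed-rectifier and A-type voltage-gated currents, which decline as the cells mature and inward rectification comes to dominate. Many other members of the family are best known from neurons.

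The libraries held the cell type on the label. Among marker genes, 17 myelin genes (Mbp, Mag and others) summed to between 125100 and 175700 CPM (a gene's counts scaled to a common library total), and 14 precursor genes (Pdgfra, Cspg4 and others) summed to between 4391 and 8160. Most of the precursor sum came from Gpr17 and Tnr, with control means of 2708 and 1468 CPM, against 141 for Pdgfra and 65.4 for Cspg4. Of 13 neuronal genes 12 were tested, and they summed to between 784 and 1002 CPM, of which Elavl3, an RNA-binding protein gene, made up 716 to 929. Slc17a7, the glutamate transporter of excitatory neurons, lay between 0.0424 and 0.33 CPM. The part of neuronal RNA in the results was not tested. Astrocyte genes summed to between 1153 and 3118 CPM in 15 libraries and to 7944 CPM in male BPA library 2, where 14 of 14 were at their highest. Microglial genes ranged from 625 to 2638 CPM. Male BPA library 2 also had the lowest myelin sum, 125100 CPM against at least 136900 in the other 15 libraries. Its endothelial sum was 156.8 CPM against at most 142.6, and its mural and fibroblast sum 175.4 against at most 92.6. Counts, medians and several single values are given with and without that library. These are bulk samples, so fewer cells of a type and less RNA per cell cannot be told apart.

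Inward rectifiers and voltage-gated alpha subunits made up most of the channel RNA. Levels between genes were compared on the deposited scale of normalized counts per kilobase of median transcript length. Kcnj10 was first at 6941 ± 530 (SD, n = 8 controls), with a lowest value of 6047, a median of 6921 and a highest of 7802. It held 37.2% of the summed level of the 66 members. Kcna1 and Kcna6, voltage-gated channels of the Shaker family whose genes are neighbours on chromosome 6, followed at 1813 ± 199 and 1531 ± 173. The ranges of Kcnj10 and Kcna1 did not overlap. Kcna1 exceeded Kcna6 in 8 of 8 controls on this scale although their ranges overlapped. In CPM, which are not divided by length, Kcna6 was the higher in 8 of 8 controls, so their order rests on the authors' transcript lengths. Kcna2, another Shaker channel, was next at 883 ± 173, below every value of Kcna6, and Kcnq3, an M-current subunit, stood at 821 ± 131. Kcna2 was above Kcnq3 in only 4 of 8 controls, and all further neighbours among the 16 highest also overlapped. The 10 highest members held 78.8% of the summed level, the inward rectifiers as a class 41.5% and the voltage-gated alpha subunits 35.2%.

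**Figure D1:**
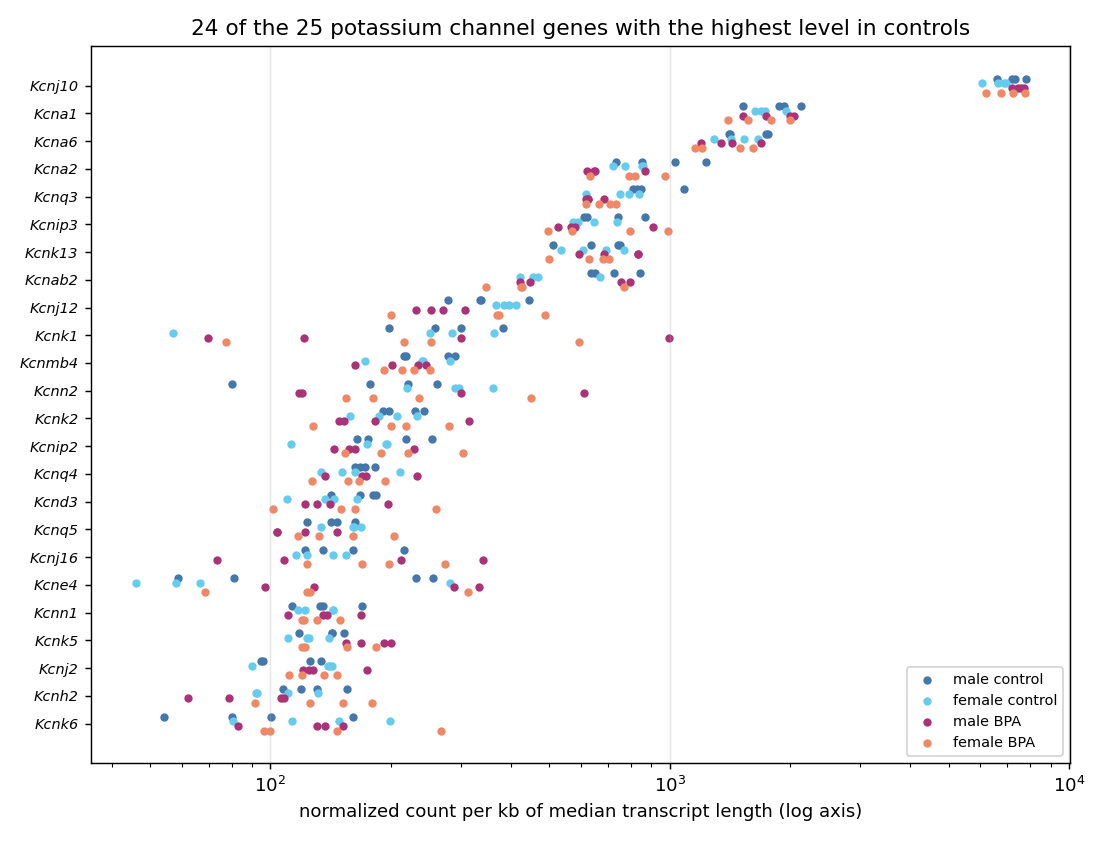
Level of 24 of the 25 highest potassium channel genes, 1 row per gene and 1 point per library, as normalized counts per kb on a log axis, coloured by group. Kcnj10 lies apart from all others, and the 4 groups lie over each other in most rows.

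Most members were thinly expressed. The median member stood at 64.7 per kb against 278 for all 16339 tested genes, and 10 of 66 members exceeded that gene median. Kcnip3, Kcnab2, Kcnk13 and Kcnj12 were among these 10. Among auxiliary subunits of voltage-gated channels, Kcnip3, a calcium-binding partner of A-type channels, stood at 673 ± 101 per kb, Kcnab2, a cytoplasmic beta subunit of Shaker channels, at 609 ± 148, and Kcnip2 at 187 ± 41.2. Of the two-pore channels, which carry background potassium current, Kcnk13 led at 655 ± 99.8, ahead of Kcnk1 at 262 ± 102 and Kcnk2 at 206 ± 27.8. After Kcnj10 the inward rectifiers were Kcnj12 at 370 ± 52.3 and Kcnj16, which pairs with Kcnj10 to form heteromeric channels, at 147 ± 32.4. The calcium-activated Kcnn2 stood at 239 ± 85.5 and Kcnn1 at 135 ± 18.2, and the subunit Kcnmb4 at 242 ± 39.9. Kcnu1, grouped with them as a relative of Kcnma1 but gated by voltage and pH rather than calcium, stood at 109 ± 10.9. The median transcript length used by the authors can be much shorter than the main transcript (0.741 kb for Kcnh2), so this order holds on their scale. Ranked by CPM, 10 of the 10 highest genes were shared.

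Promoters are shown of Kcnj10, the member with the highest level, of Kcnd3 and Kcnj3, whose levels went with precursor markers, and of Kcnc4, whose level went with astrocyte markers, as the 250 bases before the transcription start in RefSeq on GRCm38.p6, 5′ to 3′ on the gene's strand. Kcnj10 is at chr1:172340960-172341209 (+ strand), Kcnd3 at chr3:105451640-105451889 (+ strand), Kcnj3 at chr2:55435720-55435969 (+ strand) and Kcnc4 at chr3:107458899-107459148 (- strand). Capitals mark the E-box letters CAGCTG, which read the same on both strands and are the kind of word that basic helix-loop-helix factors of the oligodendrocyte lineage can bind.
Kcnj10: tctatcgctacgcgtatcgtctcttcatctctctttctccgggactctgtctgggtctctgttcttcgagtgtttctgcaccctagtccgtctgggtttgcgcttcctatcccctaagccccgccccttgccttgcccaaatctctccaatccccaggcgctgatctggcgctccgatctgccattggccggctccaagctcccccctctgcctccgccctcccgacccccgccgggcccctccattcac
Kcnd3: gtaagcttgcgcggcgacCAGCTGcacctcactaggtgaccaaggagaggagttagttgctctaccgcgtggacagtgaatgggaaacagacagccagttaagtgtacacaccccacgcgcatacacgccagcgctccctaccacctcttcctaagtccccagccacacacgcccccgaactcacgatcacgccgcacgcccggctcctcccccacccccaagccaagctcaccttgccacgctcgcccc
Kcnj3: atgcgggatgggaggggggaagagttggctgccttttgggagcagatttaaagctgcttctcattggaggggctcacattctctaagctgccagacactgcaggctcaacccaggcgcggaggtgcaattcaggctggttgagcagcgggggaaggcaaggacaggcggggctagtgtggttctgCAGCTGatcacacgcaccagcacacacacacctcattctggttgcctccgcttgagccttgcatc
Kcnc4: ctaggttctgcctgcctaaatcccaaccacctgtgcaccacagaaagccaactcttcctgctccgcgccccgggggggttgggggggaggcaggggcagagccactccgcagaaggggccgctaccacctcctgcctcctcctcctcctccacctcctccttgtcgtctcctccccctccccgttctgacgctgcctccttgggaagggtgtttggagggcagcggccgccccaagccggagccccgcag
The E-box letters occur once in the Kcnd3 window and once in the Kcnj3 window. Of the 7 members that went with the precursor markers, 4 have the letters in at least 1 window, and 4 of their 12 windows hold them. Of the 5 members that went with the astrocyte markers, windows of 2 were counted. Of those 2 windows, 1 holds the letters, that of Kcng4. The letters ACAAAG, a core that SOX factors bind, or their complement CTTTGT, occur in none of the 4 windows. RefSeq promoters were found for 49 of 66 members, 72 windows in all, of which 26.4% held CAGCTG against 13% of 32851 promoters of all genes. ACAAAG or CTTTGT occurred in 9.72% of member windows against 16.5% of all. Member windows were richer in G and C, with a median of 60% against 52.4%, and several windows belong to the same gene. Overlapping windows of Kcnc2 hold the same CAGCTG, so that site is counted more than once in the member share. A match is a description of letters, not a site.

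BPA against control asks whether perinatal exposure changed channel RNA. No potassium channel gene passed the threshold (limma-voom, Benjamini-Hochberg adjusted p of 0.05 over 16339 genes) in both sexes together, in males, in females or in the difference between the sexes. Over all genes the called shares were 0.0184%, 0.00612%, 0% and 0%. At an unadjusted p under 0.05 there were 4 of 65 members in both sexes (6.15%, against 7.69% of all genes), 6 in males (9.23% against 7.96%), 3 in females (4.62% against 4.55%) and 4 in the difference between the sexes (6.15% against 4.72%). These shares lie near the background. The median log2 fold change of members was 0.02 in both sexes, −0.06 in males and 0.08 in females, beside 0.00, 0.01 and 0.00 for all genes. In both sexes together, 64 of 65 members had a 95% interval narrower than 2-fold either way, and the median interval reached 1.3-fold either way.

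**Figure D2:**
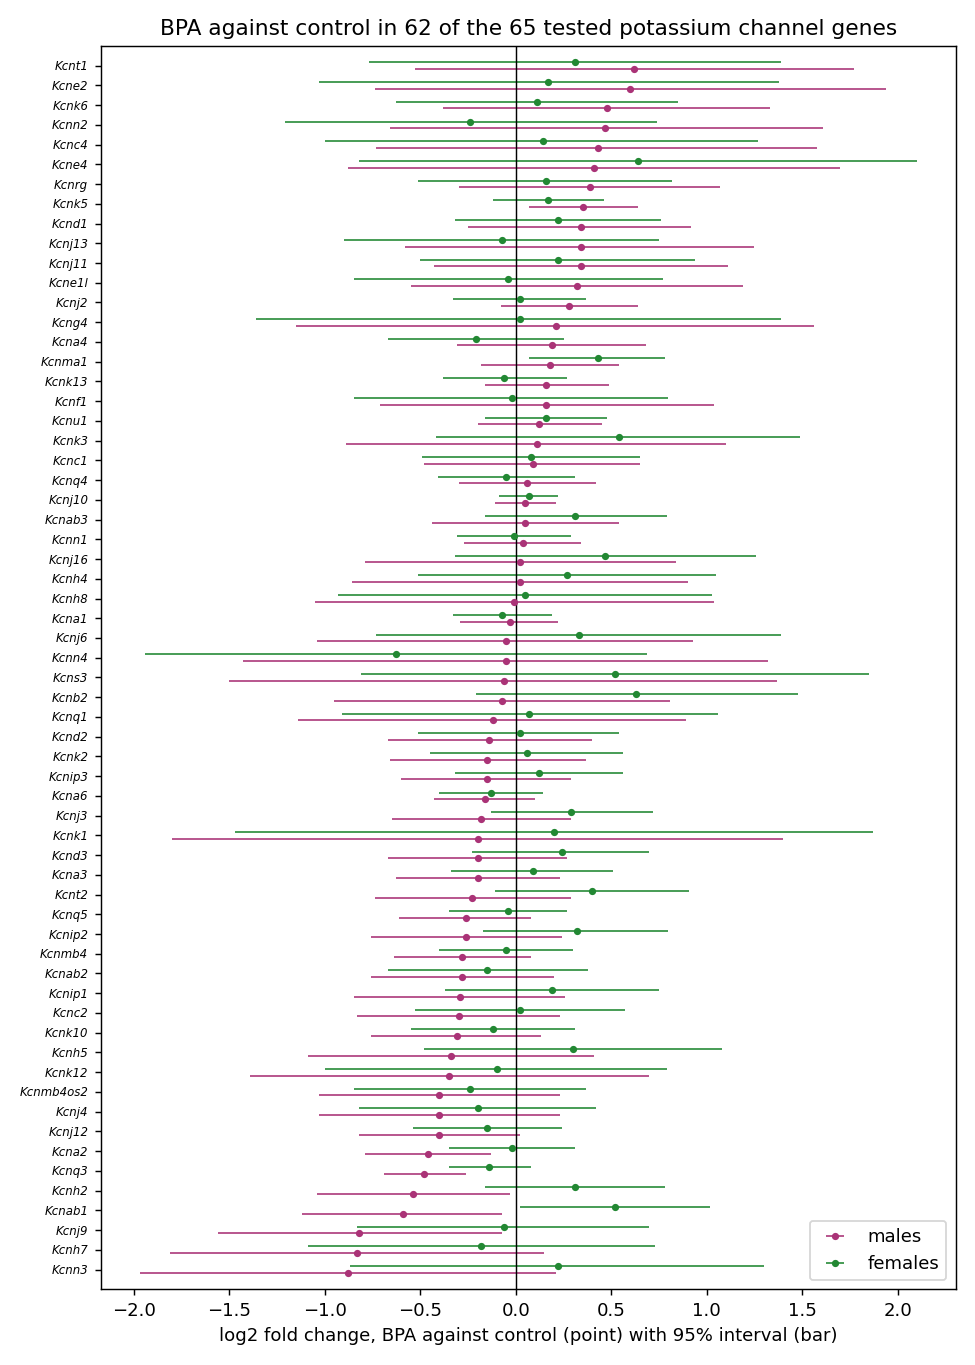
Log2 fold change of BPA against control for 62 of the 65 tested members, ordered by the value in males, with points for males and females and bars for 95% intervals. No member passed the adjusted threshold in either sex, and most intervals cross 0.

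Among voltage-gated alpha subunits, Kcnq3 had the smallest p in males and in both sexes. Kcnq3 is a subunit of the M-current, a slow potassium current that dampens excitability. It measured 74.1, 94.8, 71.9 and 70.0 CPM in male controls and 53.8, 54.8, 53.4 and 59.6 in BPA males. Every BPA male was below every control male, and male control library 2 stood above the other controls. In females the values were 53.6, 68.9, 65.5 and 73.1 in controls and 53.8, 61.3, 63.7 and 57.6 after BPA, and the groups overlapped. The log2 fold change was −0.48 ± 0.10 (SE) in males (adjusted p = 0.25), −0.14 ± 0.10 in females (adjusted p = 0.999) and −0.31 ± 0.07 over both (adjusted p = 0.232, unadjusted p = 0.000698). The difference of these BPA effects, females minus males, was 0.34 ± 0.14 (adjusted p = 0.999).

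Kcna2, which carries delayed-rectifier current, measured 94.3, 132, 157 and 108 CPM in male controls and 78.7, 111, 82.0 and 83.0 in BPA males. Only male BPA library 2 reached into the range of the controls. The fold change in males was −0.46 ± 0.16 on the log2 scale (adjusted p = 0.481). In females it was −0.02 ± 0.16. Kcna1 (−0.05 ± 0.09 over both sexes) and Kcna6 (−0.15 ± 0.09), the other abundant Shaker channels, had intervals that included 0. Kcnd2, the A-type channel Kv4.2, measured 28.4 CPM in male BPA library 2 against 9.98 to 11.7 in the other BPA males and 13.4 to 18.3 in male controls. Its log2 fold change over both sexes was −0.06 ± 0.18, and −0.25 without that library.

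The BPA effect on Kcnh2, the channel known as HERG, differed between the sexes by 0.85 ± 0.32 on the log2 scale. It was 0.31 ± 0.22 in females and −0.54 ± 0.24 in males, and no gene was called for this difference of effects. Kcnh8 was at 0.02 ± 0.34 over both sexes.

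Of the auxiliary subunits, Kcnab1, a beta subunit that speeds inactivation of Shaker channels, gave the smallest p for a sex difference in BPA effect. Female controls measured 0.583, 0.527, 0.791 and 0.636 CPM and BPA females 1.04, 0.851, 0.799 and 0.974. All 4 BPA females were above all 4 controls, by a narrow gap between 0.799 in BPA library 3 and 0.791 in control library 3. In males the controls measured 0.769, 0.907, 1.29 and 0.590 and the exposed 0.523, 0.672, 0.436 and 0.597, with overlap. The fold changes were 0.52 ± 0.23 in females and −0.59 ± 0.25 in males, and they differed by 1.11 ± 0.34 (adjusted p = 0.999). The gene was low, at 13.3 ± 4.38 per kb in controls.

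Inward rectifiers gave 7 higher and 3 lower of 10 tested in both sexes, none past the threshold. Kcnj10 measured 1146, 1232, 1042 and 1154 CPM in male controls and 1125, 1229, 1170 and 1199 in BPA males, and 1052, 956, 1091 and 1104 in female controls and 981, 1059, 1223 and 1141 in BPA females. Its groups overlapped in both sexes. The log2 fold change of 0.06 ± 0.05 had a 95% interval from −0.06 to 0.17. Kcnj12 was at −0.28 ± 0.13 over both sexes (−0.17 without female BPA library 4) and −0.40 ± 0.20 in males. Kcnj9, a subunit of G-protein-gated channels present at under 0.7 CPM in all libraries, was at −0.44 ± 0.25.

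The two-pore channel Kcnk5, which responds to extracellular pH, was the member with the smallest p among those higher in both sexes. It measured 8.48, 8.44, 6.94 and 8.97 CPM in male controls and 9.04, 10.1, 11.8 and 11.4 in BPA males. All BPA males were above all control males, by a narrow gap for male BPA library 1. Female controls measured 7.29, 6.56, 8.31 and 7.42 and BPA females 7.11, 7.17, 9.16 and 10.8, with overlap. The log2 fold change was 0.26 ± 0.10 over both sexes (adjusted p = 0.501). Kcnk13 was at 0.05 ± 0.11 and Kcnk2 at −0.04 ± 0.17. Kcnk1 ranged from 2.95 to 52.1 CPM over the 16 libraries, and its fold change was 0.00 ± 0.54.

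Kcnma1, the large-conductance calcium-activated channel, measured 4.90, 6.01, 6.502 and 6.44 CPM in female controls and 7.26, 9.03, 7.69 and 8.30 in BPA females. The 2 female groups did not overlap. The log2 fold change was 0.43 ± 0.17 in females, 0.18 ± 0.17 in males and 0.30 ± 0.12 over both (adjusted p = 0.54), and 0.21 over both without male BPA library 2. Kcnn1 (0.01 ± 0.10), Kcnn2 (0.12 ± 0.35) and Kcnu1 (0.14 ± 0.11) had intervals that included 0, as did Kcnn4 (−0.34 ± 0.45). Kcnmb4, which modulates Kcnma1 channels, was at −0.17 ± 0.12 and Kcnmb4os2 at −0.32 ± 0.21. In the annotation 34.2% of the exon bases of Kcnmb4os2 lie opposite exons of Kcnmb4. HTSeq's strand setting is not given in the sources used here, so their reads may not be fully separate. The same limit holds for Kcna6 (39.6% of exon bases, opposite Gm26673), Kcnj13 (49.1%, Gigyf2) and Kcnj3 (31.1%, Gm26794).

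**Figure D3:**
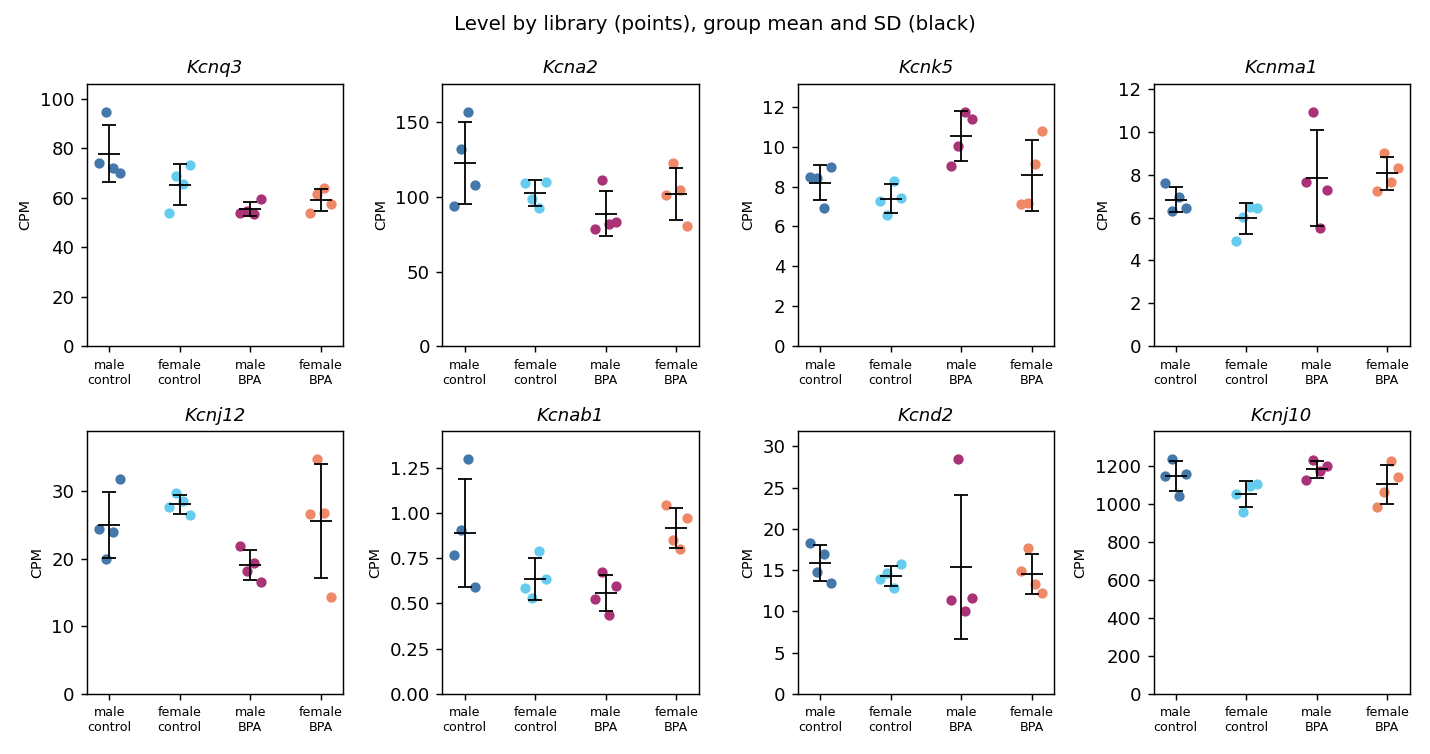
CPM of 8 members by library, with group means and SD in black. Kcnq3 is lower and Kcnk5 higher in every BPA male than in any control male, and Kcnma1 and Kcnab1 are higher in every BPA female than in any control female. The other 4 genes overlap within each sex.

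No member had its 8 control and 8 BPA libraries apart, against 0.0857% of all genes. In males 4 of 65 members had groups that did not overlap (Kcnq3, Kcnk5, Kcnmb4os2 and Kcnh7), which is 6.15% against 4.45% of all genes. In females there were 2 (Kcnma1 and Kcnab1), 3.08% against 3.33%. Kcnh7 was low, and its male groups were parted only by 0.380 CPM in male BPA library 4 and 0.384 in male control library 4. Kcnmb4os2 was also low, between 0.448 and 0.697 CPM in males. By direction, 5 of 65 members in males were lower with an unadjusted p under 0.05 (7.69%, against 4.80% of all genes, 784 of the 1300 under that p). In females 3 of 65 were higher (4.62% against 2.15%, 351 of 744), and none was lower. In the difference of females minus males 4 of 65 were higher (6.15% against 3.12%, 509 of 772), and none was lower.

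Leaving out male BPA library 2 moved the members' medians. Over both sexes 41 of 65 members were then lower, with a median log2 fold change of −0.07 against −0.006 for all genes. The full set had 28 lower and a median of 0.02. In males 49 of 65 members were then lower, with a median log2 fold change of −0.22 against −0.01 for all genes, where the full set had 38 lower and a median of −0.06. The difference of females minus males had a median of 0.32 without that library and 0.22 with it. For all genes these medians were 0.004 and −0.015. Kcnd2 in males went from −0.14 ± 0.25 to −0.52 ± 0.14 (adjusted p = 0.23 without the library), and Kcnn3, a small-conductance calcium-activated channel, from −0.88 ± 0.51 to −1.46 ± 0.51 (adjusted p = 0.337). Kcnma1 in males went from 0.18 ± 0.17 to −0.01 ± 0.14. Over both sexes Kcnn2 changed sign, to −0.15 ± 0.30, Kcnk1 moved to −0.40 ± 0.50 and Kcnn4 to −0.62 ± 0.42. Also over both sexes, Kcnk2 moved to −0.18 ± 0.14, Kcnmb4 to −0.10 ± 0.11 and Kcnk13 to 0.10 ± 0.11. No member was called without it. Unadjusted p under 0.05 was then met by 5 members in both sexes (7.69%, against 8.33% of all genes), 8 in males (12.3% against 11.1%) and 9 in the difference (13.8% against 9.29%). Among those 9 were Kcnab1, Kcnd2, Kcnh2, Kcna2, Kcnn3, Kcnma1 and Kcnq3.

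Between females and males, over both exposures, no member was called, against 0.0673% of all genes. Unadjusted p under 0.05 was met by 5 of 65 members (7.69%) against 4.35% of all genes. Kcnab2 was at −0.43 ± 0.17 (females minus males), Kcnk5 at −0.24 ± 0.10, Kcnq5, an M-current subunit, at 0.25 ± 0.11, Kcnj12 at 0.30 ± 0.13 and Kcnj10 at −0.11 ± 0.05, each with an adjusted p of 0.999. Without male BPA library 2, Kcnj10 (−0.10 ± 0.05) and Kcnj12 (0.29 ± 0.15) no longer had an unadjusted p under 0.05. Kcnab2, Kcnk5 and Kcnq5 kept it, and Kcnn2 (0.68 ± 0.30), Kcnh4 (0.61 ± 0.27) and Kcne1l (0.44 ± 0.17) gained it. No share over all genes was counted for this comparison in that setting.

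Single libraries stood apart. Of 66 members, 20 were at their highest in male BPA library 2 (30.3%, against 17.99% of all tested genes) and 16 in female BPA library 2 (24.2% against 7.79%). Kcnt1, a sodium-activated channel, measured 48.6 CPM in male BPA library 2 and at most 14.4 in the other 15 libraries. Kcnj16 measured 36.5 there and at most 29.1 elsewhere. Kcnj10, which astrocytes also express, measured 1229 there, within the range of the others.

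**Figure D4:**
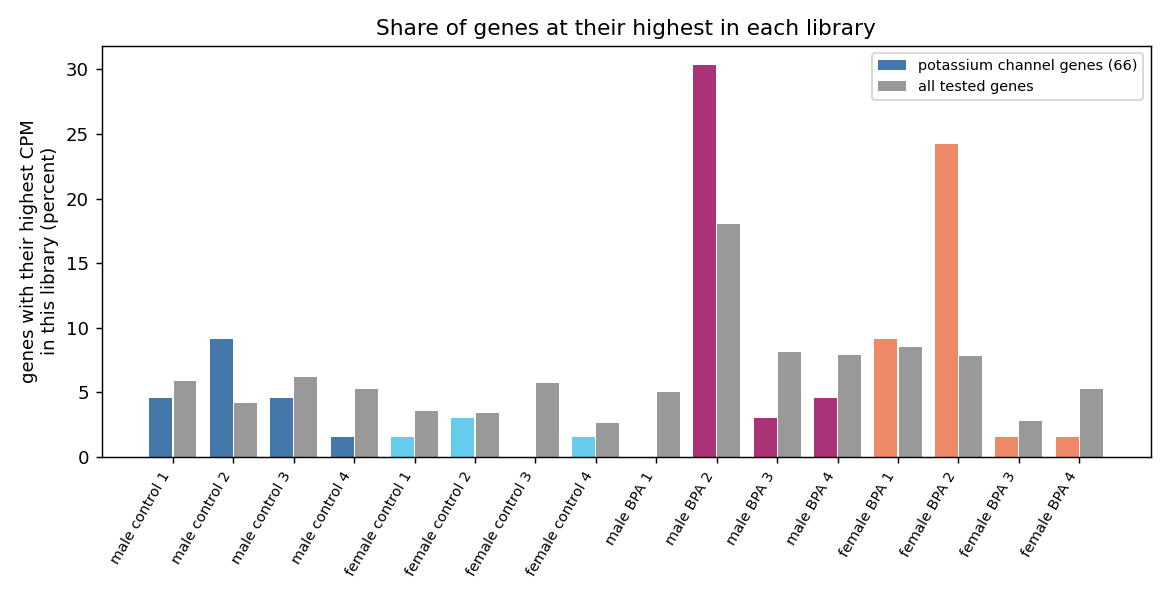
Percent of genes that have their highest CPM in each library, for the 66 members (coloured by group) and for all tested genes (grey). Male BPA library 2 and female BPA library 2 hold 20 and 16 of the members.

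Some members varied between libraries with markers of other cells or stages. For each tested member, log2 CPM with group means removed was correlated over 16 libraries with the mean of 14 precursor markers and of 14 astrocyte markers, 130 pairs in all, with permutation tests within groups. Of these, 12 had an adjusted p under 0.05 by Pearson's r, all positive, and 8 by both measures. These genes were named after their correlations were seen. The points share library preparation, depth and the makeup of the sorted cells, and the part of those in the result was not tested.

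With the precursor list went 7 members: Kcnk10 (r = 0.88), Kcnd3 (0.86), Kcnj3 (0.82), Kcnip3 (0.79), Kcnip1 (0.76), Kcnf1 (0.73) and Kcnh7 (0.59). Kcnd3 encodes an A-type channel, Kcnip1 and Kcnip3 encode calcium-binding partners of such channels, and Kcnf1 encodes a silent subunit that modifies others. Kcnd3 had Spearman's rho of 0.81 (adjusted permutation p = 0.0165 for r and 0.0175 for rho), and r was 0.63 without female BPA libraries 2 and 4, the farthest on the precursor scale. It measured 20.2 CPM in female BPA library 2, where the precursor mean was highest, and 7.88 in female BPA library 4, where it was lowest. Kcnj3, a G-protein-gated rectifier subunit, measured 10.4 and 5.29 in those libraries. By rho, Kcnk10, Kcnip3, Kcnf1 and Kcnh7 had adjusted permutation p of 0.0643, 0.0669, 0.179 and 0.0698.

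The astrocyte list went with 5 members, among them Kcnt1 (r = 0.98), Kcnc4 (0.97), Kcng4 (0.94) and Kcnn2 (0.87). Kcnt1 had rho of 0.95 (adjusted permutation p = 0.00325 for r and 0.00563 for rho). Without male BPA libraries 2 and 4, the farthest, r was 0.93 for Kcnt1, 0.94 for Kcnc4, 0.90 for Kcng4 and 0.79 for Kcnn2. Without male BPA library 2, 9 of 130 pairs had an adjusted p under 0.05, and those of Kcnf1 and Kcnh7 with the precursor list were no longer among them. Kcnc4, a fast A-type channel, measured 17.03 CPM in male BPA library 2 and 2.28 in male BPA library 4. Kcng4, a silent subunit that modifies other voltage-gated channels, measured 12.8 and 1.30.

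**Figure D5:**
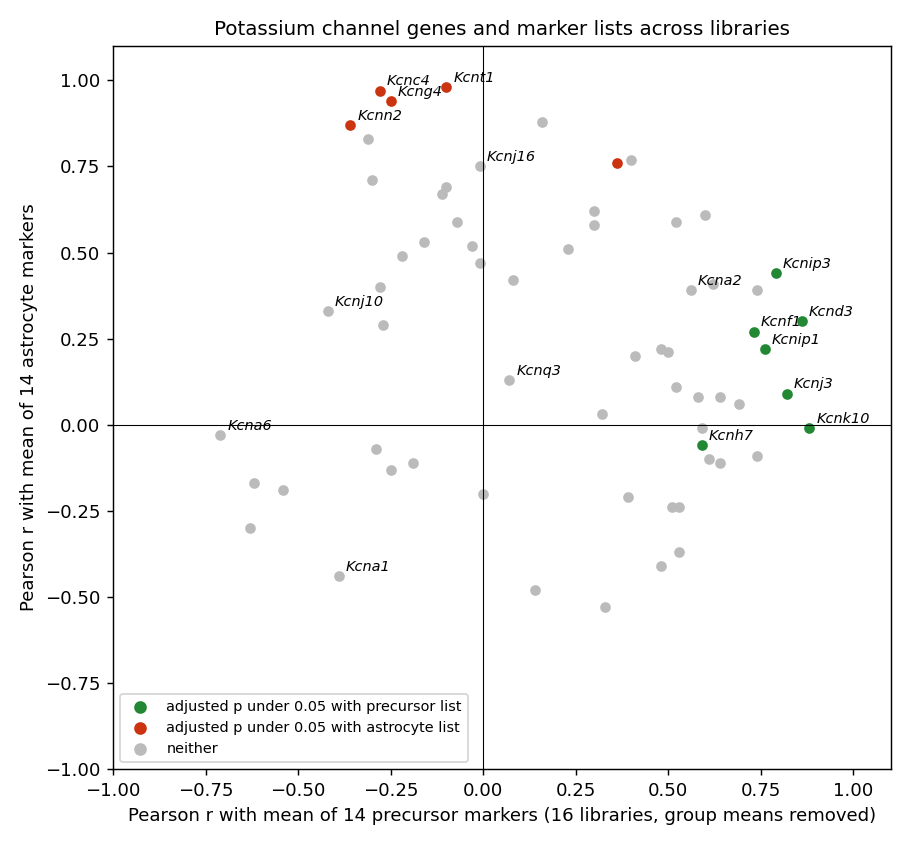
Pearson's r of 65 members with the mean of the precursor markers (horizontal) and of the astrocyte markers (vertical) over 16 libraries, group means removed. The 7 genes with an adjusted p under 0.05 for precursors lie to the right and the 5 for astrocytes at the top, no gene is in both sets, and some grey genes with a similar r did not pass the permutation test.

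The same test with the 7 other marker lists, 455 pairs, was added after the data were seen, and 7 pairs had an adjusted p under 0.05 by r. Kcnk6, a two-pore channel, went with the 12 microglial genes (r = 0.96, rho = 0.96, adjusted permutation p = 0.0091 for each, and r = 0.93 without female BPA library 1 and male control library 2). It measured 19.2 CPM in female BPA library 1 and 3.90 in male control library 1, the libraries with the highest and lowest microglial means. Kcnk12 (r = 0.86) and Kcnd1 (0.82) also went with microglial genes, and Kcnj13 (0.84) and Kcne2 (0.82), both known from choroid plexus epithelium, with ependymal and choroid plexus genes. Kcnd2 went against the myelin genes (r = −0.89) and Kcnk13 with them (0.73). Of these 7, the pair of Kcnk6 alone also had an adjusted p under 0.05 by rho, and alone without male BPA library 2.

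Genes that work beside the channels gave 0 calls. The list of 44 held sodium-potassium pump subunits, cation-chloride cotransporters, connexins, channel partners without a Kcn symbol and HCN channels. In both sexes 36 were tested, 25 higher and 11 lower, and the median log2 fold change was 0.04. Slc12a2, the cotransporter that brings in sodium, potassium and chloride, was at −0.17 ± 0.05 (adjusted p = 0.41). Dlg4, a scaffold that clusters Shaker channels, was at 0.14 ± 0.04 (adjusted p = 0.285), and Dlg1 at −0.12 ± 0.07. On the scale per kb, Hcn2, which passes potassium and sodium on hyperpolarization, stood at 4002 ± 870 in controls.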

How the data were processed

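The submitters' processing notes name build mm39 and the tools DESeq2 1.16.1, HTSeq 0.6.1p1, STAR 2.5.3a and, for base calls, bcl2fastq 2.20.0.422. Per the labels, stranded poly(A) libraries were made, and the deposited table holds raw counts, normalized counts, and normalized counts divided by median transcript length in kb. The deposited counts, whose unit is recorded as other because commas in the column names kept the unit check from parsing them, were whole numbers summing to between 23603816 and 42575326 per library. The deposited normalization matched median-of-ratios size factors (largest relative deviation 6.18e-11).

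Because of that layout, limma-voom (limma 3.58.1, R 4.3.3) replaced the quasi-likelihood count test that had been planned. All 16 libraries were fitted with 1 coefficient per group, TMM scaling re-implemented in R, and robust empirical Bayes. Genes were kept at a count minimum of 10 (scaled to depth) in 4 libraries and a sum of 15. All tests are two-sided, with Benjamini-Hochberg adjustment and a threshold of 0.05. Adjustment was over all 16339 genes in the main fits. For the correlations it was over the 130 pairs with the precursor and astrocyte lists, and over the 455 pairs with the other lists. The script was tested on simulated data. A count of 0 allows up to 3 counts, which is 0.0705 CPM in the deepest library and 0.127 CPM in the shallowest. This floor covers counting error only. Log2 CPM for correlations used a prior count of 2 and 100000 permutations.

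The members and all lists were chosen with earlier results of these data known. The genes named are the 3 highest per class, the 6 smallest p over both sexes, the 4 smallest in each other comparison, 8 set members, those nearest the count minimum and, of the partner genes, up to 3 of each role. Other names were added after their values were seen. Some selected genes are counted but not reported here by name. Symbols and overlaps come from GENCODE M21 on GRCm38, and no coordinates of mm39 are printed.

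Alternatives covered scaling, filters, test, replicate block, each library left out and levels by CPM.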

Additional observations from a re-analysis of the deposited data

Results flagged for a closer look

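For the named genes, 120 groups of 4 libraries were examined for a library whose gap to the nearest other exceeded Dixon's 95% critical value as a share of the group's range, and 10 values did. Chance alone flags about 1 group in 20. Male BPA library 2 was the library with the highest astrocyte, endothelial and mural sums and the lowest myelin sum. There Kcna2 measured 111 CPM against 78.7 to 83.0 in the other BPA males, and Kcnd2 28.4 against 9.98 to 11.7. Kcnip3 measured 53.9 there against 30.9 to 33.8, and Kcnj14 0.622 against 0.109 to 0.168. In male control library 2, Kcnq3 measured 94.8 CPM against 70.0 to 74.1 and Kcnj14 0.552 against 0.137 to 0.199. Kcnj14 shares 35.6% of its 31-base words with transcripts of other genes, which makes its counts uncertain. Kcnh8 measured 0.371 CPM in female control library 1 against 0.684 to 0.717. Kcnj9 measured 0.396 in female control library 3 against 0.264 to 0.283, and 0.127 in female BPA library 4 against 0.334 to 0.349. Kcnu1 measured 2.83 in female BPA library 1 against 4.07 to 4.13.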

How the results depend on the processing

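No potassium channel gene gained a call in any of 22 settings. Of 654 recomputed values of 30 named results, 630 kept their direction and 24 reversed, all of Kcna1, Kcnd2, Kcnk1, Kcnh8 and Kcnab1 over both sexes. The smallest adjusted p of a named gene in any setting was 0.124. Reversed values outside single-library omissions were Kcna1 0.04 and Kcnk1 −0.11 without male BPA 2 and female BPA 1 together, and Kcnk1 −0.01 with no filter and −0.06 with limma-trend. Leaving out each library in turn gave Kcna1 −0.09 to −0.01, Kcnd2 −0.25 to 0.02, Kcnk1 −0.40 to 0.28, Kcnh8 −0.21 to 0.21 and Kcnab1 −0.12 to 0.07. The cause was not tested.

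Calls over all genes in both sexes fell from 3 to 0 with at least 1 CPM in 4 libraries, with the replicate block and without both libraries, and ranged from 0 to 5 with single libraries left out. In males 1 became 2 with no filter, 3 with limma-trend and 0 without both, with a range of 0 to 3. In females 0 became 2 with no filter. The difference ranged from 0 to 3. Members with an unadjusted p under 0.05 ranged from 3 to 7 in both sexes, 3 to 8 in males, 1 to 6 in females, 3 to 9 in the difference and 1 to 6 between the sexes. Without both libraries they were 5 in females and 10 in the difference, and between the sexes 3 with the replicate block and 3 with limma-trend. The share over all genes was counted only in the full set and, for both sexes, males and the difference, without male BPA library 2. The difference had 4.72% in the full set and 9.29% without that library. The counts in other settings therefore have no background beside them and are not read as a result about the channels. No pairing by replicate number was seen. Over 24 same-number pairs r ran from −0.238 to 0.231 (median 0.0238), and over 72 other-number pairs from −0.399 to 0.418 (median −0.0153). By the same measure 4 of 16 libraries were closest to their own number. These values cannot exclude shared litters or days. Median-of-ratios scaling moved none of these counts by over 1.5 times.

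The planned quasi-likelihood and Wald count tests were not run, since the table's layout kept the unit check from parsing it. With 4 libraries a group, 52 of 65 intervals in males were narrower than 2-fold either way. Among members with a mean of at least 10 CPM, 16 of 21 were. The part of depth and of group size in the width of these intervals was not tested.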

Other observations

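Kcne4, a subunit that inhibits voltage-gated channels, had a coefficient of variation of 75.6% over the 8 controls, second among members to Kcne2 at 79.0%. It measured 16.8, 3.82, 5.28 and 15.1 CPM in male controls, 4.35, 3.01, 18.4 and 3.79 in female controls, 18.7, 6.37, 8.34 and 21.8 in BPA males, and 20.4, 7.99, 4.47 and 8.18 in BPA females. Each group held both high and low libraries. Kcne4 was named after its values were seen.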
